A study of Mus musculus with 18 samples.

Results

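In this series 6 primary mammary tumours that carried a Wnt1 transgene and no receptor construct were compared with RNA of the whole mouse, gene by gene. They are the 6 arrays of 18 in the series whose tumour channel is labelled Wnt1, taken whole and not selected on any measured value. The tumour RNA of each array was labelled with Cy5 and hybridised beside Cy3-labelled total RNA of the whole mouse, the common reference. The sample titles give the strain as FVB and join MMTV with Wnt1 on all 18 arrays, so the other 12 tumours, 4 each labelled Wnt1_iFGFR1, Wnt1_iFGFR2 and Wnt1_iR2 (iFGFR1, iFGFR2 and iR2 below), share the Wnt1 transgene. They are used here only to show where the Wnt1 tumours differ. The labels do not expand the receptor names, give no age and name no treatment.

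The MMTV promoter, taken from mouse mammary tumour virus, drives a transgene mainly in mammary epithelium. Wnt1 is a secreted ligand that binds Frizzled and Lrp5 or Lrp6 receptors on the cell surface and keeps beta-catenin from being degraded, after which beta-catenin switches on target genes with Tcf and Lef factors. The mammary gland is built of an inner luminal layer, which includes the cells that make milk, and an outer basal or myoepithelial layer that contracts. MMTV-Wnt1 tumours are known for holding cells of both layers.

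A value is the log2 ratio of tumour over whole-mouse reference, averaged over the array features of a gene symbol, for 16887 genes. A ratio above 0 means more signal in the tumour than in the body as a whole, not a high level, and a gene low in both can lie near 0. The ratios of different genes therefore do not rank their levels. The dyes were not swapped, so a dye effect and a difference between tumour and reference cannot be told apart for any gene. In whole tumours, fewer cells of a type and less RNA per cell cannot be told apart either. Whether the 6 tumours came from 6 different animals is not in the labels. A p-value therefore reflects only the variation among arrays within groups, pooled over all 18 arrays, part of which may be technical. An SD printed beside a mean is that of the 6 Wnt1 arrays alone.

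Wnt1 replicate 3 stood apart from the other 5 arrays. Over all genes the other 5 correlated with each other at 0.84 to 0.92, and replicate 3 correlated with them at 0.76 to 0.79 and with the 4 iR2 arrays at 0.83 to 0.86. The other 5 correlated with the iR2 arrays at 0.80 to 0.90, so a high correlation with iR2 was not particular to replicate 3. All correlations of replicate 3 with iR2 arrays were above all of those with the other Wnt1 arrays. The interquartile range of its feature values was the narrowest, at 0.79 against 0.878 to 1.015 on the other 5. Its extremes, -8.435 and 7.565, were the lowest and highest values of the Wnt1 arrays. The number of arrays limits the precision, and several results that rest on replicate 3 are given with and without it.

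More genes lay far below the whole-body pool than far above it. Of 16887 genes, 3149 (18.6%) lay above 0 on all 6 arrays, 4504 (26.7%) lay below 0 on all 6, and 9234 (54.7%) were on both sides. By limma's test of the mean ratio against 0, at an adjusted p under 0.05, 3701 genes (21.9%) were higher in the tumours and 4966 (29.4%) lower, 51.3% in either direction. At an unadjusted p under 0.05 the counts were 4197 and 5311. A mean ratio beyond 2-fold, tested as such, was found for 284 genes higher (1.68%) and 1525 lower (9.03%), and 272 and 1515 of these lay on that side of 0 on all 6 arrays. Large differences were more lopsided still, with 7 genes at a mean ratio over 4 and 203 under -4. Without replicate 3, 346 genes were more than 2-fold higher and 1545 lower, and 268 and 1468 of them were also called with it. The median of the mean ratios over all genes was -0.01.

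The 12 genes with the highest mean ratios included secretory, transport and transcription factor genes of epithelium. Gabrp, a GABA-A receptor subunit made in mammary and other epithelia, ran from 2.76 to 5.74 with a median of 5.50. Its mean of 5.05 ± 1.14 (SD, n = 6) is 33.1-fold above the reference (adjusted p = 8.52e-09). Replicate 3 alone held the low value, since the other 5 arrays lay between 5.21 and 5.74. Csn3, the milk protein kappa-casein, had its lowest value of 3.0 on replicate 6, a median of 4.47 and its highest value of 6.67 on replicate 3. Its mean was 4.59 ± 1.19. Inhbb, the beta B subunit of inhibins and activins, ran from 3.74 to 4.97 around a median of 4.27. Replicate 3 was not at either end for Inhbb.

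Tfap2c, which encodes the transcription factor AP-2 gamma, was steady at 3.23 to 4.05 with a median of 3.76 (adjusted p = 6.3e-15). Plekhs1 was as steady at 3.77 to 4.34, and Itprid1 lay between 3.06 and 3.79. Nkd2, a Dishevelled-binding inhibitor of Wnt signalling, had a median of 3.99 and stood at 1.96 on replicate 3 against 3.36 to 4.38 on the other 5. The sialyltransferase gene St8sia6 and Macc1, known in human cancer as a regulator of MET, showed the same picture, with replicate 3 at 2.46 and 2.26 and the lowest of the other 5 at 3.91 and 3.88. Cwh43 was lowest on replicate 3 as well, at 1.08 against 4.03 to 4.91. Plet1 ran from 3.22 to 4.64 and was highest on replicate 3, and Slc5a8, a sodium-coupled monocarboxylate transporter gene, ran from 2.62 to 4.33. All 12 were above 0 on all 6 arrays.

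The 12 genes with the lowest mean ratios were mostly genes of liver, intestine and striated muscle. Fabp1, the fatty acid carrier of hepatocytes and enterocytes, ran from -8.26 to -7.57 with a median of -8.01. Its mean of -7.95 ± 0.23 is 248-fold below the reference (adjusted p = 1.76e-21). The spread over the 6 tumours was small beside this distance. Cps1, the entry enzyme of the urea cycle, had a median of -7.05 (-7.77 to -6.66), and the plasma protein genes Ambp, Fgg and Apoh had medians of -6.91, -6.71 and -6.75. Igfbp1, a binding protein for insulin-like growth factors secreted by liver, had a mean of -6.84. Of the muscle genes, Myot, which encodes a Z-disc protein, ran from -8.43 to -6.51 with a median of -7.78, and Smpx, Eno3 and Fhl1 had means of -6.83, -6.72 and -6.66. Atp1b4 and Itm2a completed the group at -7.28 and -6.70. None of these 12 genes was above -5 on any array, the least negative value being -5.32 for Itm2a on replicate 3.

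**Figure D1:**
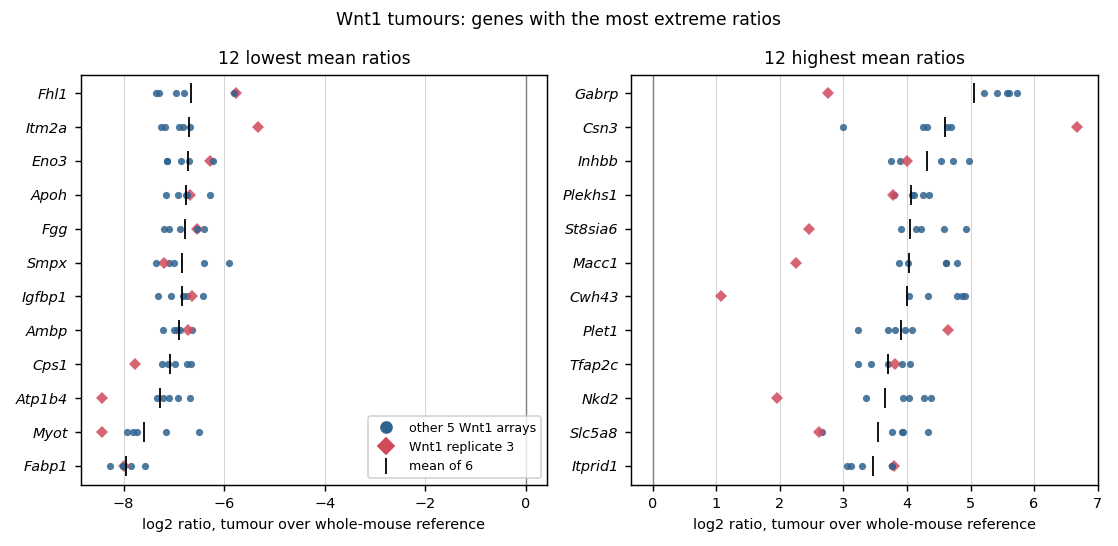
Log2 ratio of tumour over whole-mouse reference on each of the 6 Wnt1 arrays for the 12 genes with the lowest (left) and the 12 with the highest (right) mean ratios; points are the other 5 arrays, red diamonds are replicate 3 and black ticks are means of 6. All points of the left panel lie below -5, and replicate 3 is far to the left for Gabrp, Macc1, Cwh43 and Nkd2.

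Wnt1 itself, the transgene, read 1.13 at the lowest, 1.68 at the median and 1.93 at the highest. All 6 tumours were above the whole-body pool, and the mean of 1.57 ± 0.31 is 2.96-fold (adjusted p = 5.37e-08, and 0.0112 against 2-fold). The 12 receptor tumours read 0.86 to 2.46, and their mean differed from that of the Wnt1 tumours by -0.08 (SE 0.20, adjusted p = 0.837). The part of the gene that the feature covers is not known here, so transgene and endogenous RNA cannot be told apart. Fgfr1 and Fgfr2, receptors for fibroblast growth factors, had means of 0.22 (adjusted p = 0.125) and 0.11 (adjusted p = 0.568) in the Wnt1 tumours, neither past the threshold.

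Pan-epithelial genes were above the reference. Of 15 measured members, 13 were higher, 0 lower, 11 were above 0 on all 6 arrays and the median was 1.01. Counts of higher and lower members in this and the following lists stand beside 21.9% higher and 29.4% lower over all genes. The protease gene St14 ran from 2.15 to 3.40 around 2.56, the keratin gene Krt18 from 1.83 to 3.59 around 2.41 and the claudin gene Cldn3 from 1.81 to 2.94 around 2.68. The adhesion gene Epcam had a median of 1.98 (1.40 to 2.43). Krt8, which pairs with Krt18 in simple epithelium, varied more than these, from -0.03 on replicate 1 to 2.65 on replicate 3. Spint1 and Esrp1 had means of 0.05 and -0.09 and did not pass.

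Genes of luminal progenitors and milk-making alveolar cells were higher for 12 of 18 members and lower for 2, with a median of 1.94 (1.61 without replicate 3). Besides Csn3, the transcription factor gene Ehf had a median of 3.58, and it read -0.33 on replicate 6 and 2.67 to 4.31 on the other 5. The receptor tyrosine kinase gene Kit, a marker of luminal progenitors, was even across the tumours at 2.49 to 3.33 (median 2.87, adjusted p = 1.44e-14). Elf5, a transcription factor of alveolar differentiation, read 5.44 on replicate 3 and 1.59 to 2.72 elsewhere. Sox10 had a median of 2.61 (2.17 to 2.95), and Ltf and Lcn2, which encode the iron-sequestering proteins lactoferrin and lipocalin 2, had medians of 2.64 and 2.06. Aldh1a3, an aldehyde dehydrogenase used to mark these cells, had a mean of 1.80 and stood at 0.35 on replicate 3 against 1.47 to 2.70. The members below the reference were Tspan8 (mean -1.05) and the folate receptor gene Folr1 (mean -1.51), and Folr1 was at 1.54 on replicate 3 and at -2.41 to -1.86 on the rest. Of the milk genes other than Csn3, Csn1s1 passed, with a mean of 2.16 (1.08 without replicate 3), and Csn2, Lalba and Wap did not (adjusted p = 0.134, 0.0862 and 0.948).

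Hormone-sensing luminal genes were split. Of 11 members 4 were higher and 2 lower, with a median of 0.18, beside 21.9% higher and 29.4% lower over all genes. Gata3, a transcription factor needed for luminal cells, ran from 1.82 to 3.42 with a median of 2.06. The estrogen receptor gene Esr1 averaged 0.18 ± 0.74 without passing the test (adjusted p = 0.675). Its highest value, 1.53, was on replicate 2. The progesterone receptor gene Pgr was above 0 on all 6 arrays, at 0.42 to 0.84 (median 0.77). Foxa1 went both ways, from -1.69 on replicate 6 to 1.08 on replicate 5. Wnt4, a ligand that progesterone induces in mammary epithelium, was low at -2.73 to -1.81 (median -2.21).

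Basal and myoepithelial genes went both ways, with 9 of 22 members higher, 9 lower and a median of 0.05. Of all genes, 21.9% were higher and 29.4% lower. The higher set held Id4 at a median of 2.88 (2.45 to 3.36), the hemidesmosome integrin gene Itgb4 at 2.23 (1.56 to 2.38), the basal transcription factor gene Trp63 at 1.60 (1.29 to 2.93) and the keratin gene Krt14 at 1.81 (0.90 to 2.21). Snai2, Cdh3, Lgr5, Oxtr and Itga6 were higher too, with means of 1.31, 1.48, 1.16, 0.90 and 0.85. The lower set held the contractile genes Myh11, Acta2 and Cnn1, with medians of -3.37, -2.81 and -2.85, and the mesenchymal intermediate filament gene Vim at -2.10. It also held Igfbp2, which encodes a binding protein for insulin-like growth factors, at a median of -2.62. Myh11, Acta2, Cnn1 and Vim are also expressed in smooth muscle or stroma of the body. On replicate 3 these 4 were less negative than on any other array, with Myh11 at -0.58 against -3.64 to -3.23, while Igfbp2 was least negative on replicate 4, at -2.13. Krt5, the keratin partner of Krt14, had a mean of 0.20 and did not pass (adjusted p = 0.387).

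Most genes of cornified skin were below the pool. Of 19 squamous members 12 were lower and 3 higher, and the median was -1.89. Lor, which encodes loricrin of the cornified envelope, ran from -6.49 to -5.74, Krt10, a keratin of the upper epidermis, from -4.87 to -4.22, and Flg had a mean of -4.04. The members above the reference were Sprr1a, Krt6b and Dsg3, with means of 1.31, 1.21 and 0.42. Each of these 3 was lowest on replicate 3, at -0.07, 0.35 and -0.15.

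**Figure D2:**
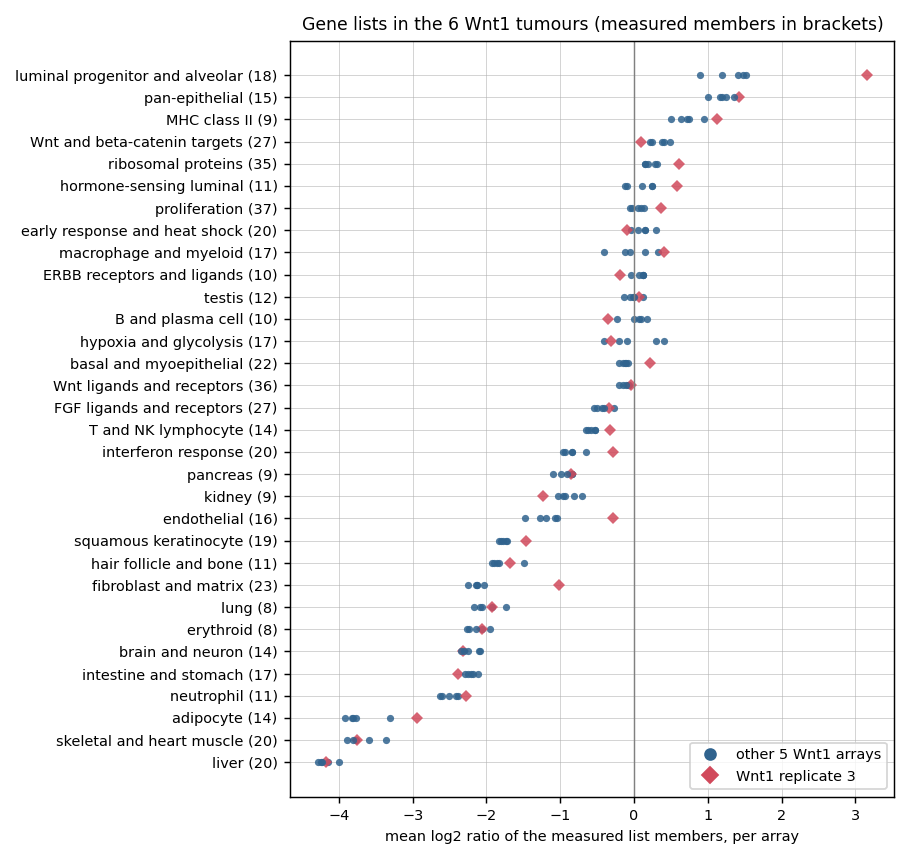
Mean log2 ratio over the measured members of each of 32 gene lists (number measured in brackets), 1 point per Wnt1 array; red diamonds are replicate 3. Luminal progenitor and alveolar genes and pan-epithelial genes lie above 0 and liver, muscle and adipocyte genes below -2.9 on all 6 arrays, and replicate 3 is set off for the luminal, fibroblast and endothelial lists.

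Among genes known as targets or feedback parts of beta-catenin signalling, 12 of 27 were higher and 9 lower (median 0.21). The share lower was close to the 29.4% over all genes, of which 21.9% were higher. The secreted Wnt antagonist Wif1 ran from 1.82 to 3.11 (median 2.49), the cell cycle gene Ccnd1 from 1.94 to 2.82 (median 2.17) and Rnf43, which removes Frizzled receptors from the surface, from 1.88 to 2.86 (median 2.31). Myc was the most even of the higher members, at 1.63 to 1.99 (median 1.80). Ccn5, Tnfrsf19 and Lgr6 had means of 1.88, 1.72 and 1.42, and with Nkd2, Wif1, Ccnd1, Rnf43 and Myc they make up the 8 members more than 2-fold higher. Axin2, a widely used target of the pathway, had a mean of 0.20 (-0.35 to 0.76) and did not pass (adjusted p = 0.221). Notum, Nkd1 and Dkk4 also did not pass. The members more than 2-fold lower were Dkk1, a secreted inhibitor of Lrp5 and Lrp6, at a median of -2.55, with Ccn4 at -2.23 and Bmp4 at -1.56. Lef1 stood at -3.25 on replicate 3 and between -0.76 and -0.01 on the other 5 arrays (mean -0.84, adjusted p = 0.023). Without replicate 3 the mean of Lef1 was -0.35 and its call was lost (adjusted p = 0.133).

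Of 36 Wnt ligands, receptors and R-spondins, 7 were higher and 11 lower (median 0.04), shares close to the 21.9% higher and 29.4% lower over all genes. Besides Wnt1, the ligand gene Wnt5b was higher on every array at 1.68 to 2.68 (median 2.26), and Wnt5a had a mean of 0.52. The co-receptor gene Lrp5 ran from 1.15 to 2.54 (median 2.17) and Lrp6 from 0.77 to 1.82. Of the ligands below the pool, Wnt4 was lowest, with Wnt2 at a mean of -1.53, Wnt3 at -1.39 and Wnt9a at -1.26. The receptor gene Fzd4 had a median of -2.56 (-2.99 to -1.34), and Fzd3 and Fzd7 were slightly higher, at means of 0.60 and 0.47. Rspo1, which encodes a secreted enhancer of Wnt signalling, went from -3.43 on replicate 5 to 0.83 on replicate 3.

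Of 27 FGF ligands and receptors 9 were lower, a share close to the 29.4% over all genes, and 2 were higher, with a median of -0.07. The lower members included Fgf12, Fgfr4, Fgf18 and Fgf7, with medians of -2.50, -1.90, -1.92 and -1.71, and the 2 higher members, Fgf23 and Fgf11, had means of 0.56 and 0.44. Fgf12 varied from -4.44 on replicate 4 to 0.08 on replicate 3. Of 10 ERBB receptors and ligands, again with shares near those over all genes, Nrg1, Tgfa and Erbb2 were higher (means 1.03, 0.97 and 0.46) and Hbegf and Egf lower (means -0.62 and -1.67).

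Cell cycle genes differed little from the whole-body pool. Of 37 members 9 were higher and 4 lower, with none past 2-fold and a median of 0.11. Over all genes 21.9% were higher and 29.4% lower. With replicate 3 left out, 7 members were higher and 4 lower. The replicative helicase genes Mcm3, Mcm4, Mcm7 and Mcm2 had means of 0.93, 0.73, 0.62 and 0.61. The proliferation marker Mki67 was below 0 on all 6 arrays, at -1.36 to -0.45 (adjusted p = 4.42e-05), and Ccne1, Ccne2 and Nusap1 were lower with means of -0.83, -0.79 and -0.68. Top2a and Cdk1 had means of 0.11 and -0.04 and did not pass. Ribosomal protein genes were higher for 16 of 35 members and lower for Rps14 (mean -0.88), with a median of 0.21. On replicate 3 the mean of these 35 was 0.61 against 0.15 to 0.32 on the other 5, and without that array 13 were higher and 4 lower.

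Of 17 hypoxia and glycolysis genes 5 were higher and 5 lower, shares not far from the 21.9% and 29.4% over all genes. With replicate 3 left out, 6 were higher and 3 lower. Pfkl, Slc2a1 and Ndrg1 had means of 1.30, 1.22 and 1.14, and the low members Bnip3, Aldoa and Ldha had means of -1.94, -1.76 and -1.04. The list mean separated the tumours, with replicates 5 and 6 at 0.41 and 0.30 and the other 4 between -0.41 and -0.10. Egln3, an oxygen sensor that hypoxia induces, was also highest on these, with 1.43 and 1.89 on replicates 5 and 6 and -0.55 to 0.68 on the others, and its mean of 0.64 passed only without replicate 3 (adjusted p = 0.0569 with it and 0.0119 without). Interferon response genes were lower for 12 of 20 members and higher for 2 (median -0.80), and for 15 and 3 without replicate 3. Rsad2 ran from -2.52 to -1.23, Ifit1 from -2.44 to -1.44 and Ifit3 from -2.30 to -1.17, and the higher members Psmb8 and Gbp2 had means of 0.99 and 0.73. Among 20 immediate early and heat shock genes, a group known to react to the handling of tissue as well, 7 were higher and 6 lower. The share lower was near the 29.4% over all genes, and the share higher was above the 21.9%. With replicate 3 left out, 9 were higher and 6 lower. Egr2 had a median of 1.70, and Klf2 was lowest at a median of -1.80.

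Markers of stroma and fat were below the pool. Of 23 fibroblast and matrix genes, 18 were lower, 16 of them more than 2-fold, and 3 higher (median -2.54). The collagen genes Col5a1, Col3a1 and Col1a2 had medians of -4.41, -3.76 and -3.28, and Dcn and Lum, proteoglycans of connective tissue, had -3.40 and -3.82. The higher members were Fbln1, Fbln2 and S100a4, at means of 1.06, 0.69 and 0.64, and S100a4 lost its call without replicate 3 (adjusted p = 0.0566). The list mean was -1.01 on replicate 3 and -2.25 to -2.03 on the other 5. Of 16 endothelial genes 14 were lower and 0 higher, Tek and Robo4 most, with medians of -2.29 and -2.03, while Cdh5 was near 0 at a mean of 0.09. Here replicate 3 had a list mean of -0.29 against -1.47 to -1.04. Of 14 adipocyte genes 13 were lower, all more than 2-fold. The fat genes Fabp4 and Adipoq had medians of -5.86 and -4.91 and were at -3.25 and -3.45 on replicate 3, and Ucp1 and Cidea, genes of brown fat, were even at -5.46 to -4.90 and -6.03 to -5.36.

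Immune markers were mixed. Of 17 macrophage and myeloid genes 4 were higher and 8 lower (median -0.37), beside 21.9% higher and 29.4% lower over all genes. Cd14, a lipopolysaccharide co-receptor gene, Ctss, a lysosomal protease gene, Aif1 and C1qa were the higher members, with medians of 1.48, 1.22, 1.19 and 1.31, and Cd14 reached 3.91 on replicate 3 (0.73 to 1.76 elsewhere). Cd14 is also in the luminal progenitor list. The mannose receptor gene Mrc1 was lower, at a median of -1.21. Neutrophil and marrow granule genes were far lower, with 9 of 11 members past the test, S100a9 at -6.53 to -5.20 and Camp at -5.02 to -4.43. Ltf was the higher member and is shared with the luminal list. Of 14 T and NK genes 6 were lower and 2 higher, the latter being Zap70 and Cd3e with means of 0.60 and 0.51, and the CD8 genes Cd8b1 and Cd8a had means of -2.41 and -1.36. Of 10 B and plasma cell genes 2 were higher and 3 lower, near the shares over all genes. Pou2af1 and Pax5 were higher, Pou2af1 at 1.95 to 3.21 on 5 arrays and 0.15 on replicate 3, and Cd79b was low at a median of -2.19. Of 9 MHC class II genes 5 were higher and 0 lower, among them H2-DMb1 and H2-Aa with medians of 1.71 and 1.70. The part of these cells in the epithelial results was not tested.

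Liver and muscle genes were far below the pool, and other organs varied. All 20 skeletal and heart muscle genes were lower and more than 2-fold so (median -3.55), as were 17 of 20 liver genes (median -4.44, with 19 of 20 lower). The motor protein gene Myh7 ran from -5.68 to -5.14, and Alb, which encodes serum albumin, ran from -4.71 to -3.92. Of 17 intestine and stomach genes 11 were lower, Fabp2 at -6.92 to -6.13 and Vil1, an actin bundler of the brush border, at -4.22 to -3.85. Lung surfactant genes Sftpc and Sftpd had medians of -4.85 and -4.46. In brain genes 9 of 14 were lower, with the neurofilament genes Nefl and Nefm at -4.38 and -4.21. The brain gene Camk2a was higher, at a mean of 0.35, and of hair follicle and bone genes 9 of 11 were lower. Of 12 testis genes, Tnp2 was higher with a mean of 0.35, 1 was lower and the median was 0.08. Kidney and pancreas were intermediate, with 6 of 9 members lower in each and medians of -0.84 and -0.75. The insulin gene Ins2 was at -3.37 to -2.55, and 2 pancreas members were higher, the lipase gene Cel (mean 1.48) and the chymotrypsinogen gene Ctrb1 (mean 0.53). The erythroid genes Alas2 and Slc4a1 had medians of -3.53 and -3.58.

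The tumours were close to each other for most genes. The median SD of a gene over the 6 arrays was 0.33 (0.30 without replicate 3), beside 0.38 in iFGFR1, 0.39 in iFGFR2 and 0.17 in iR2. An SD over 1 was seen for 275 genes, and for 119 without replicate 3. The most even genes with a mean beyond 2 in either direction were Lgals4, a galectin of intestine, at -4.18 to -4.08, the slow muscle troponin gene Tnni1 at -3.55 to -3.34, and Fam20a, which encodes a partner of the secretory pathway kinase Fam20c, at 2.47 to 2.75. The next 3 by SD were Gfi1b, Kdf1 and Tro, with means of -2.45, 2.12 and -2.52. Replicate 3 made up 82.8% of the first principal component, which held 39.2% of the variance among the 6. Of the 100 genes with the highest SD, 53 were farthest from the median on replicate 3, 15 on replicate 5 and 13 on replicate 1. Replicate 3 lay more than 1 log2 unit above all other 5 for 369 genes and below all 5 for 313. The same counts were 52 and 62 for replicate 1, 41 and 57 for replicate 2, 5 and 21 for replicate 4, 40 and 13 for replicate 5, and 17 and 40 for replicate 6.

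**Figure D3:**
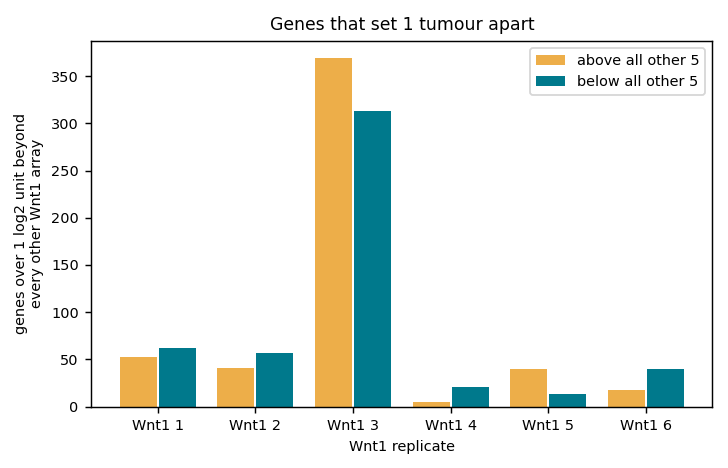
Number of genes (vertical axis) that lie more than 1 log2 unit above or below every other Wnt1 array, for each of the 6 replicates. Replicate 3 has 369 above and 313 below, and no other replicate has more than 62 in either direction.

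The genes that set replicate 3 apart included those of milk. Csn1s1, which encodes alpha-S1 casein, read 7.57 on replicate 3 and 0.33 to 1.58 on the other 5. Csn1s2a, another casein gene, read 7.30 against -1.64 to 0.08, and Csn2, the beta-casein gene, 6.71 against -0.40 to 0.43. No other array of the series, receptor tumours included, was above 3.08 for any of these 3 caseins. Lao1, an L-amino acid oxidase found in mouse milk, read 5.30 against -0.67 to -0.20, and Lalba, the alpha-lactalbumin of lactose synthesis, 3.51 against -0.24 to 0.32. Wap, the whey acidic protein gene, was at 1.26 against -0.47 to 0.04 as the average of 2 features. Csn3 differed from the other caseins in being high on all 18 arrays, at 3.0 to 7.41, and replicate 3 at 6.67 was within the range of the receptor tumours, 4.87 to 7.41. Cel, the bile salt-activated lipase found in milk and pancreas, read 4.08 against 0.46 to 1.36.

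**Figure D4:**
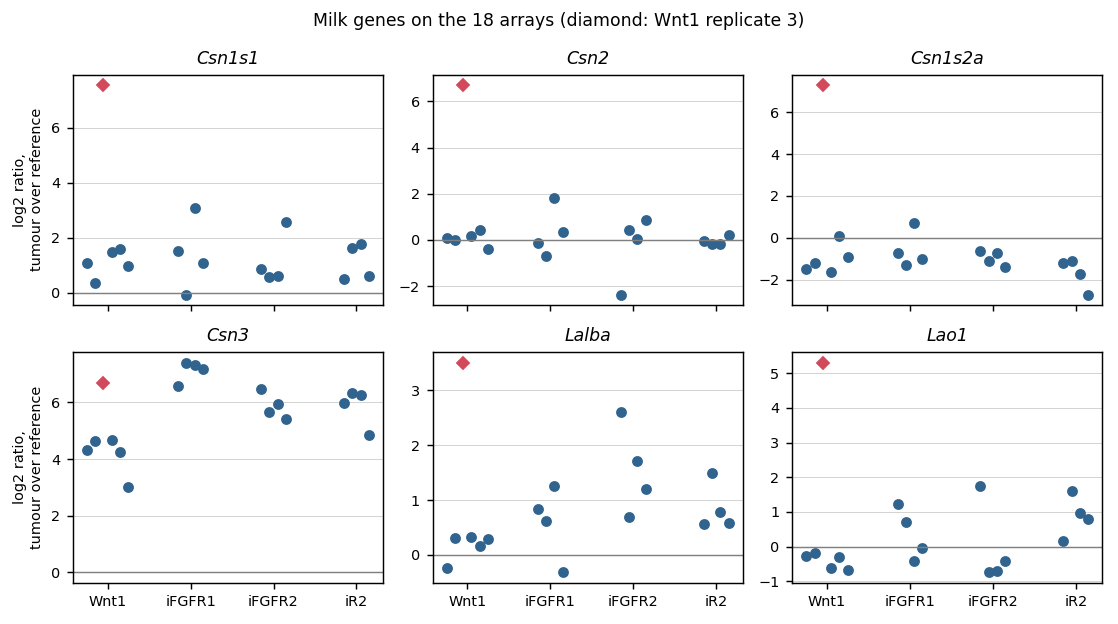
Log2 ratio of 6 milk genes on all 18 arrays by group, 1 point per array; each panel has its own vertical scale and the red diamond is Wnt1 replicate 3. The diamond is the highest of all 18 points for Csn1s1, Csn2, Csn1s2a, Lalba and Lao1, and lies within the receptor groups for Csn3.

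The casein genes Csn1s1, Csn2 and Csn1s2a are neighbours on chromosome 5, and prolactin is known to switch on caseins through Stat5, which binds the palindrome TTCNNNGAA. The 150 bases before the start of each gene in RefSeq (assembly GRCm38.p6) are shown because these 3 genes carry the widest gap between replicate 3 and the other tumours. Each is written 5′ to 3′ on the strand of the gene, and capitals mark a match to the palindrome, which reads the same on both strands. Csn1s1 is at chr5:87666058-87666207 on the plus strand, Csn2 at chr5:87699426-87699575 on the minus strand and Csn1s2a at chr5:87774300-87774449 on the plus strand.
Csn1s1: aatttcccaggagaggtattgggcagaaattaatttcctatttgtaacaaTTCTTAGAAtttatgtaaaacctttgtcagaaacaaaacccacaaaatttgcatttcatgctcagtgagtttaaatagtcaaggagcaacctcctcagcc
Csn2: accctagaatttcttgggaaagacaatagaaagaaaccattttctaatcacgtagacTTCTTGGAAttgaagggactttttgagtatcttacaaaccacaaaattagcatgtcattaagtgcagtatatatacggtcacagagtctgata
Csn1s2a: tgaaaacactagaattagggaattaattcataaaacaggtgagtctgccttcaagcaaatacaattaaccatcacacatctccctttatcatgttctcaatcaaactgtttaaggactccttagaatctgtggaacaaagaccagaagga
The first base of the match lies 100 bases before the start of Csn1s1 and 93 bases before that of Csn2, and the window of Csn1s2a holds none, nor do those of Lalba, Lao1 and Wap. Of all 32851 such windows in the table, 1344 (4.09%) hold the palindrome, as do 589 of the 13425 genes of the arrays that have a window (4.39%). A match is a description of letters and not a binding site, and array ratios do not test binding.

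Genes of other kinds were higher on replicate 3 too. The acute phase genes Saa2 and Saa1 read 4.23 and 3.50 against -0.78 to 0.27 and -0.74 to -0.61, and Mmp3, a matrix metalloprotease, read 4.88 against -0.73 to 1.89. The mean of Mmp3, 1.33, passed with replicate 3 and not without it (0.62, adjusted p = 0.175). Klk7, a protease of shed skin, was at -0.08 on replicate 3 and at -4.99 to -4.67 on the other 5. Trf, the iron carrier transferrin made by liver and lactating gland, read 0.65 against -3.96 to -2.76, and Gata2 read 1.47 against -3.05 to -2.18. In the other direction, Fbp1, an enzyme of gluconeogenesis, read -6.41 against -2.0 to -1.0, and Lmnb1, which encodes lamin B1 of the nuclear envelope, read -2.28 against 1.81 to 3.01. Foxd3 was at -1.41 against 2.26 to 2.93, Kif26b at -0.66 against 2.34 to 3.13 and Sostdc1, an antagonist of BMP and Wnt signals, at 0.20 against 2.93 to 3.20. For Foxd3, Kif26b, Sostdc1 and Klk7, receptor tumours reached the value of replicate 3, so these values were not particular to it. The iFGFR1 group had means of -1.05 for Foxd3, -0.66 for Kif26b, -0.97 for Sostdc1 and 1.13 for Klk7. Its means of -5.68 for Fbp1 and -0.14 for Trf were nearer to replicate 3 than the other 5 Wnt1 arrays were. For Fbp1, Trf, Mmp3, Gata2, Saa1, Saa2 and Lmnb1 the 12 receptor arrays did not reach the value of replicate 3. Over the 32 gene lists replicate 3 had the highest mean of the 6 arrays in 16 and the lowest in 6.

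**Figure D5:**
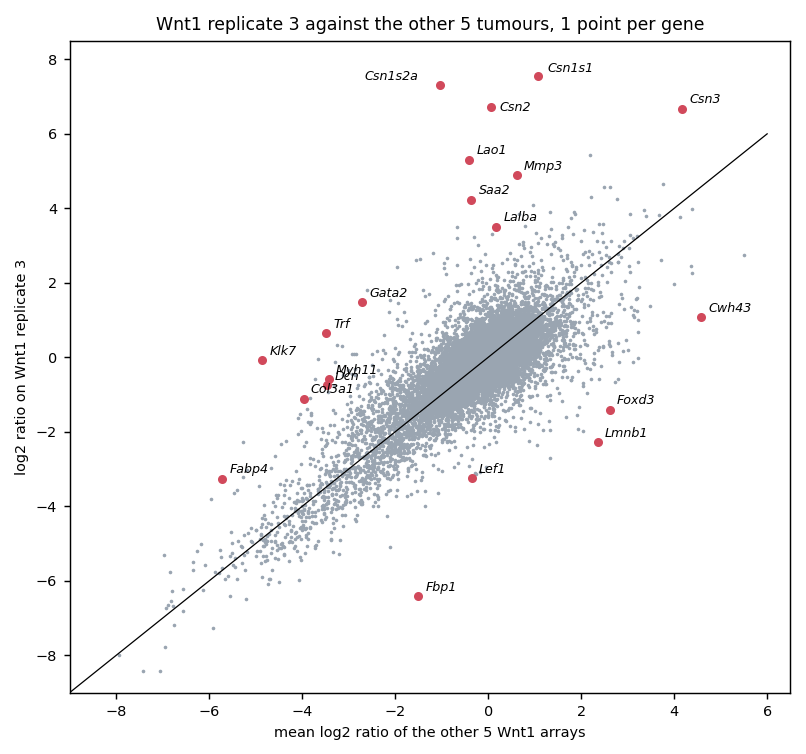
Log2 ratio on Wnt1 replicate 3 (vertical axis) against the mean of the other 5 Wnt1 arrays (horizontal axis), 1 grey point per gene, with named genes in red and the line of equality. Csn1s1, Csn2 and Csn1s2a lie near 7 on the vertical axis and between -1.03 and 1.08 on the horizontal one, and Fbp1 and Lmnb1 lie far below the line.

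Each of the other tumours had a few genes of its own, most of them single features. On replicate 1, Uhmk1, a kinase gene, read -6.71 against -0.16 to 0.56, and Get1 read 4.12 against -0.33 to 0.42. On replicate 2, Sucnr1, the succinate receptor gene, read 4.31 against -1.02 to -0.06, and Cyct, the testis form of cytochrome c, 4.21 against -0.83 to 0.87. Replicate 4 was marked by low values, with Npy6r at -5.24 and the imprinted gene Peg10 at -4.19, while the other 5 were at -1.31 to 2.65 and -0.94 to 0.32. On replicate 5 the ephrin receptor gene Epha5 read 5.09 and Pcdha4, a protocadherin, 4.26, against -0.70 to 2.41 and -0.48 to 0.08. On replicate 6 the adhesion gene Igsf11 read 5.34 against -0.31 to -0.01, beside the low value of Ehf. For 1081 genes with 2 features, the mean ratios of the 2 features correlated at 0.44 across genes and 410 genes had them on opposite sides of 0. Such a check is not possible for genes with a single feature.

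The receptor tumours were set beside the Wnt1 tumours gene by gene, as the mean of the 3 receptor groups. Over all genes, 1166 (6.9%) were higher and 949 (5.62%) lower in the mean of the 3 receptor groups than in the Wnt1 tumours. Without Wnt1 replicate 2 these counts were 712 and 509, without replicate 6 they were 700 and 524, and without replicate 5 the lower count was 630. Leaving out replicate 3 raised them to 1546 and 1285. With the number in the sample titles as a covariate they were 433 and 226, and with array weights 1878 and 1579. Of the 24 genes with the highest and lowest ratios, 2 differed, beside 12.5% of all genes in either direction. The 24 were chosen by the same Wnt1 values that enter the difference, so a less extreme receptor value is favoured by the choice. Csn3 was higher in the receptor groups by 1.70 (SE 0.36, 3.24-fold, adjusted p = 0.00535), a call lost when arrays were scaled to 1 spread (adjusted p = 0.0767). Itprid1 was lower there (difference -0.85, SE 0.21, adjusted p = 0.0117), a call lost with that covariate (adjusted p = 0.275) and at a threshold of 0.01. The iFGFR1 tumours held the low values of Itprid1, with a group mean of 1.01 beside 3.43 and 3.40 in iFGFR2 and iR2. For the other 22 the difference of this mean did not pass, which does not show that the groups were alike. Cps1 had group means of -5.03 in iFGFR1, -5.94 in iFGFR2 and -8.57 in iR2, on both sides of the Wnt1 range of -7.77 to -6.66. Atp1b4 had -5.09, -6.42 and -8.83, with all 12 receptor arrays outside the Wnt1 range. In all, 1211 genes were above 0 on all 18 arrays and 2735 below.

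By list, the pan-epithelial genes were higher in the receptor groups for 7 of 15 members, among them Krt18 by 0.95 and Rab25 by 0.67 (adjusted p = 0.0138 and 0.00737), and lower for 0. Of 23 fibroblast and matrix genes, 10 were lower in the receptor groups and 0 higher, with Fbln1 at -1.28 and S100a4 at -1.76 (adjusted p = 0.000102 and 0.000944). Among basal genes 7 of 22 were lower there and 1, Acta2, higher. These basal members included Lgr5, Id4 and Snai2, with differences of -1.48, -1.24 and -0.96. The low Id4 values were those of iFGFR1, with a group mean of -0.08 beside 2.37 in iFGFR2 and 2.80 in iR2. Of the Wnt targets 7 of 27 were lower, among them Wif1 with a difference of -1.26 (adjusted p = 0.00044) and Ccnd1 with -0.63 (adjusted p = 0.0363), and 2 were higher, Nkd1 and Rnf43. For Wif1 too the iFGFR1 group was low, at a mean of -0.68, and the means of iFGFR2 and iR2, 2.01 and 2.26, lay within the Wnt1 range. Interferon genes were higher for 10 of 20 and proliferation genes for 7 of 37, with 0 lower in either list. The interferon genes Rsad2, Ifit1 and Bst2, each called higher, had iFGFR1 means of -0.82, 0.14 and 0.23. Their means were -1.59, -1.30 and -1.26 in iFGFR2, -1.43, -1.31 and -1.26 in iR2, and -2.11, -1.93 and -1.69 in Wnt1. All counts of this paragraph stand beside 6.9% higher and 5.62% lower over all genes. The share of each cell type in the tumours was not measured.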

How the data were processed

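Per array the deposited values are log ratios, taken as log2 of the tumour signal (Cy5) divided by that of the whole-mouse reference (Cy3). The base and direction are not stated in the table, and the direction was taken from the dyes per the labels. Tumour RNA was extracted with a column kit and reference RNA with TRIZOL, per the labels' protocols. For the scanner, background correction and normalization no source used here gives details. The 22575 features had no empty cell and array medians of -0.02 to 0.01. The platform annotation gave 1 symbol for 18658 features, several for 30 and none for 3887, and features of 1 symbol were averaged to 16887 genes.

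Ratios of all 18 arrays were fitted with limma 3.58.1 in R 4.3.3 (lmFit, 1 mean per group). The Wnt1 mean was tested against 0 (eBayes) and against 2-fold (treat), and against the mean of the 3 receptor groups. Adjusted p-values are Benjamini-Hochberg over all genes, and the threshold is 0.05. A test against 0 leaves out the spread of the reference. The fit was tested on simulated data. Replicate numbers follow accession order and pair nothing.

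The members and the 32 gene lists were chosen with earlier results of these data known, so no list serves as independent support. Named genes are Wnt1, Fgfr1 and Fgfr2, the 12 highest and 12 lowest mean ratios on 1 side of 0 on all 6 arrays and past 2-fold, up to 4 called members of each list by size and 2 in the other direction, the 16 highest and 6 lowest SDs (the latter at a mean beyond 2), and, per array, the 3 genes farthest above and the 3 farthest below the other 5. Other list members are given as values. Genes set apart on replicate 3 beyond these, the promoter windows and the palindrome were chosen after their values were seen. Alternatives covered normalization, features, priors, array weights, filters, thresholds and arrays left out.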

Additional observations from a re-analysis of the deposited data

Results flagged for a closer look

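Of 208 named genes and 32 gene lists examined, 55 genes and 6 lists had 1 Wnt1 array set apart from the other 5, by a gap to the nearest array of more than 0.625 of the whole range. The named genes include those with the highest SD and those farthest from the other arrays, which were chosen for such a gap, so their number is not set against chance. Over all genes 1536 (9.1%) had such a gap, 756 of them on replicate 3, where chance flags about 1 in 20.

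Replicate 3 accounted for 29 named genes. It was the high array for Csn1s1 (7.57), Csn1s2a (7.30), Csn2 (6.71), Elf5 (5.44), Lao1 (5.30), Saa2 (4.23), Cel (4.08), Cd14 (3.91), Gata3 (3.42), Psmb8 (2.29) and Folr1 (1.54). It was the least negative for Klk7 (-0.08), Robo4 (-0.57), Myh11 (-0.58), Thy1 (-0.74), Rsad2 (-1.23), Lum (-1.52), Col5a1 (-2.33), S100a8 (-3.80) and Itm2a (-5.32). It was the low array for Gabrp (2.76), Macc1 (2.26), Cwh43 (1.08), Sprr1a (-0.07), Slc22a6 (-2.04), Lmnb1 (-2.28), Cdh16 (-3.16), Camp (-5.02) and Fbp1 (-6.41). Its list means stood apart for luminal progenitor and alveolar (3.16), ribosomal (0.61), basal (0.22), endothelial (-0.29), fibroblast (-1.01) and squamous genes (-1.46).

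Replicate 1 stood apart for Get1 (4.12), Mfap3l (3.53), Xkr6 (2.67), Fgfr4 (-2.40), Rnase2b (-4.08), Olfr131 (-5.09), Ckm (-6.26) and Uhmk1 (-6.71). Replicate 2 did so for Sucnr1 (4.31), Cyct (4.21), Adamts19 (1.37), Igfals (-3.00), Mdn1 (-3.81) and Trpc7 (-3.84), and replicate 4 for Rnf133 (1.94), Gfi1b (-2.65) and Peg10 (-4.19). Replicate 5 was set apart for Pcdha4 (4.26), Krt27 (-0.05), Fgfr1 (-0.06), Sftpd (-2.62), Tro (-2.75) and Olfr802 (-3.18), and replicate 6 for Igsf11 (5.34), Ehf (-0.33) and Rsph4a (-4.66).

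Of the 24 genes with the highest and lowest ratios, 2 differed between receptor and Wnt1 tumours by limma's test of the difference, Csn3 by 1.70 and Itprid1 by -0.85 (receptor groups minus Wnt1). Over all genes 12.5% differed in either direction.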

How the results depend on the processing

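Leaving out 1 array at a time, the genes above 0 on all 5 remaining Wnt1 arrays numbered 3406 to 3894 and those below 4655 to 5172, limma called 3249 to 3583 higher and 4607 to 4946 lower, and 245 to 346 and 1431 to 1545 were past 2-fold. With a filter on low SD over all 18 arrays, which left fewer genes to test, 2362 were higher and 3943 lower. Without the filter these counts were 3701 and 4966. Counts of genes higher and lower in the receptor groups moved most: 1878 and 1579 with array weights, 428 and 264 at an adjusted p under 0.01, 433 and 226 with the title number as a covariate, and 700 to 1546 and 509 to 1285 with 1 array left out. The Csn3 difference lost its call with scaled arrays (1.43, adjusted p = 0.0767) and that of Itprid1 with the title number (-0.67, adjusted p = 0.275).

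With single-feature genes alone the medians were -1.25 for squamous, -0.21 for ERBB, -2.57 for brain and -0.29 for pancreas genes. The FGF median ran from -0.16 to -0.031 with 1 array left out. Array weights turned Csn1s2a to -0.38, Lao1 to -0.044, Sucnr1 to -0.045 and Saa2 to -0.069, and centring turned Olfr802 to 0.020. With 1 array left out the mean ratio changed sign within these ranges: Csn1s2a -1.03 to 0.76, Uhmk1 -1.25 to 0.20, Npy6r -1.48 to 0.10, Lao1 -0.41 to 0.78, Igsf11 -0.18 to 0.95, Olfr131 -0.91 to 0.19, Sucnr1 -0.65 to 0.41, Saa2 -0.36 to 0.64, Cyct -0.041 to 0.97, Trpc7 -0.79 to 0.12, Mdn1 -0.80 to 0.065, Igfals -0.42 to 0.45, Olfr1233 -0.69 to 0.20, Pcdha4 -0.28 to 0.67, Olfr802 -0.23 to 0.62 and Six2 -0.42 to 0.28. Receptor differences that did not pass also changed sign: St8sia6 (-0.13 with the title number, -0.15 to 0.39 with 1 array left out), Tfap2c (-0.053 with quantile normalization, -0.041 scaled), Fabp1 (0.14 and 0.11), Apoh (0.0064 scaled), Slc5a8 (-0.54) and Atp1b4 (-0.20) with the title number, Nkd2 (-0.39 to 0.092) and Ambp (-0.030 to 0.086) with 1 array left out. The cause was not tested.

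No paired analysis was possible because the replicate numbers follow accession order and the title numbers are not stated to pair tumours. The number of arrays limits the precision, and signal over background is not given.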
